A study of Mus musculus with 10 samples.

Results

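The metallothionein and oxidative stress response genes described here are 10 genes of the deposited count table, Mt1, Mt2, Nfe2l2, Keap1, Nqo1, Gclc, Gclm, Txnrd1, Srxn1 and Hmox1. They were picked from the 55401 genes that the table lists by their symbols, and the rule sets no threshold on a measured value. RNA was sequenced from meningeal lymphatic endothelial cells (LECs) of female mice aged 3 months of the strain C57BL/6 (C57BL/6J in the methods of the study), taken from the dura mater by flow sorting of CD45-, CD31+ and PDPN+ cells. The 5 naive replicates came from mice that were not stressed, and the 5 SCVS replicates from mice after 6 days of sub-chronic variable stress, in which stressors alternate. The labels name no genetic change in either group, and each replicate pooled cells from the meninges of 3 to 4 mice, so no value belongs to a single animal. The comparison asks which of these genes differ in LECs after stress.

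Metallothioneins are small cysteine-rich proteins that bind zinc, copper and other metals, and their genes are induced by metals through the factor MTF1 and by glucocorticoid hormones, as well as by oxidants. The other members belong to the NRF2 system. NRF2, the product of Nfe2l2, is held by KEAP1 and degraded in unstressed cells, and when oxidants or electrophiles modify KEAP1 it accumulates and turns on genes that make glutathione, reduce quinones, degrade heme and restore thioredoxin and peroxiredoxin. Endothelial cells of many vessels use this system against oxidants carried by blood or lymph.

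The total count of a replicate lay between 9984743 and 14094155. Levels are given as CPM, the count scaled to a library total of 1000000, and 3 counts, taken as the floor of detection, correspond to 0.213 to 0.300 CPM. A pair of naive libraries stood apart. Naive replicate 5 had a median correlation with the other libraries of 0.522, against 0.629 to 0.675 for the other 9, and its blood endothelial markers (Flt1, Plvap, Cldn5, Sox17 and Vwf) summed to 292 CPM, against 2255 to 7550 CPM in the others. In that library Sox17 and Vwf had 0 counts, Cldn5 had 2, and the astrocyte and neural markers summed to 3756 CPM, against 62.8 to 1787 CPM in the other 9. Naive replicate 1 had 0 counts of the lymphatic genes Prox1 and Pdpn and 2 of Lyve1, so that these defining markers of the sorted cell type were not detected in it, with 376 counts of Flt4, while its blood endothelial markers summed to 5678 CPM. In SCVS replicate 5 Prox1 had 2 counts and the erythroid markers summed to 4863 CPM, against 4.32 to 125 CPM in the other 9. The lymphatic markers (Prox1, Lyve1, Flt4, Pdpn, Mmrn1 and Ccl21a) summed to 60.4 to 2421 CPM in naive and 380 to 2898 in SCVS replicates. The blood endothelial sum was above the lymphatic sum in every library but SCVS replicate 3 (2255 and 2717 CPM). Mural markers (Acta2, Tagln, Myh11, Rgs5 and Pdgfrb) summed to 769 to 7532 and 390 to 5838 CPM in these groups. The share of LECs in a library was not tested. The fold changes of the members, and other values that Naive replicate 5 moved, are also given without it.

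Mt1 and Mt2 lie next to each other on chromosome 8, and the promoter windows of both are shown because their levels moved together across the replicates. In GRCm38.p6, the build of the RefSeq tables used here, Mt2 (ENSMUSG00000031762) spans chr8:94172618-94173567 and Mt1 (ENSMUSG00000031765) spans chr8:94178883-94180327, both on the plus strand, with 5315 bases from the end of Mt2 to the start of Mt1. The windows run from 250 bases before to 50 bases after a RefSeq start site, chr8:94178839-94179138 for Mt1 and chr8:94172368-94172667 for Mt2, and are printed 5′ to 3′ on the plus strand. For Mt2 that start site is the first base of the span given above. For Mt1 it is a start site further inside the span, so most of the Mt1 window lies within the gene as given. Capitals mark matches, on either strand, to the core of the metal response element (TGCACNC or TGCGCNC) and to the antioxidant response element (TGACNNNGC). Within these windows the antioxidant response element was matched in that of Mt2 and not in that of Mt1. Bases outside the windows were not searched, so its absence from the Mt1 promoter is not shown.
Mt1: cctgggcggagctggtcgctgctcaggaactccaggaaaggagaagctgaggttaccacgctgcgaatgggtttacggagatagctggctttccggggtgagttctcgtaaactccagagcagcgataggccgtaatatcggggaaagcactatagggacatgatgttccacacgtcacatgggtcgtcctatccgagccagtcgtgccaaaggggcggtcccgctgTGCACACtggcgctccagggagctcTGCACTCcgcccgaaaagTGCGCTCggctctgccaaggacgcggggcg
Mt2: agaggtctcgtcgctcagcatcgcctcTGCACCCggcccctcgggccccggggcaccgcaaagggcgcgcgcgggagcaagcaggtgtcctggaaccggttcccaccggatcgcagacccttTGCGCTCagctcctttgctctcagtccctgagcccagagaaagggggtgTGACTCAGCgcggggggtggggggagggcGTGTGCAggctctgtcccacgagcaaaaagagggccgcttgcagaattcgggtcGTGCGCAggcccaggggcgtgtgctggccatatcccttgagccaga
The Mt1 window held 3 matches to the metal response element, which began at -23, 3 and 21 relative to the start site of the window, with that base counted as 1. The Mt2 window held 4, beginning at -223, -128, -50 and 5, and 1 match to the antioxidant response element, beginning at -79, and none of its matches overlapped. Among all 32851 mouse promoter windows of this length, 25.7% held at least 1 match to the metal response element, 1.97% held at least 3 and 0.517% held at least 4, and 12.4% held the antioxidant response element. Windows were found for 8 of the 10 members, all but Hmox1 and Gclc. Besides Mt2, the antioxidant response element was matched in a window of Gclm, Srxn1, Nfe2l2 and Txnrd1, which makes 5 members, and the metal response element in Gclm and Srxn1 as well as Mt1 and Mt2, which makes 4. In Gclm, 1 match of each motif overlapped. These are matches of letters in a window, not sites shown to be bound.

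For none of the 10 members did the difference between SCVS and naive mice pass the test. All 10 passed the filter on low counts, and in edgeR's quasi-likelihood test, fitted to all 14815 tested genes, 0 of the 10 had an adjusted p under 0.1 and 0 had an unadjusted p under 0.05. Over all tested genes the test called 0.0% at the adjusted threshold and 3.1% at the unadjusted one. DESeq2 called 0.814% of the genes it adjusted and limma with voom 0.0202%, with 0 members among them in either case. For no member were all replicates of one group above all replicates of the other, a separation that 0.628% of the tested genes had. The median log2 fold change (SCVS over naive) was -0.39 over the 10 members, with 2 values above 0 and 8 below, and -0.03 over all tested genes. That direction depended on the libraries kept and on the method. Without Naive replicate 5, 6 members were above 0 and 4 below, with medians of 0.15 over the members and 0.02 over all tested genes. Without Naive replicate 1, 4 were above and 6 below (median -0.05). With all 10 replicates, limma gave 6 above and 4 below (median 0.12). In edgeR with the replicate numbers as a block there were 5 above and 5 below (median -0.10). As these are bulk samples, fewer cells of a type and less RNA per cell cannot be told apart in any of these values.

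**Figure D1:**
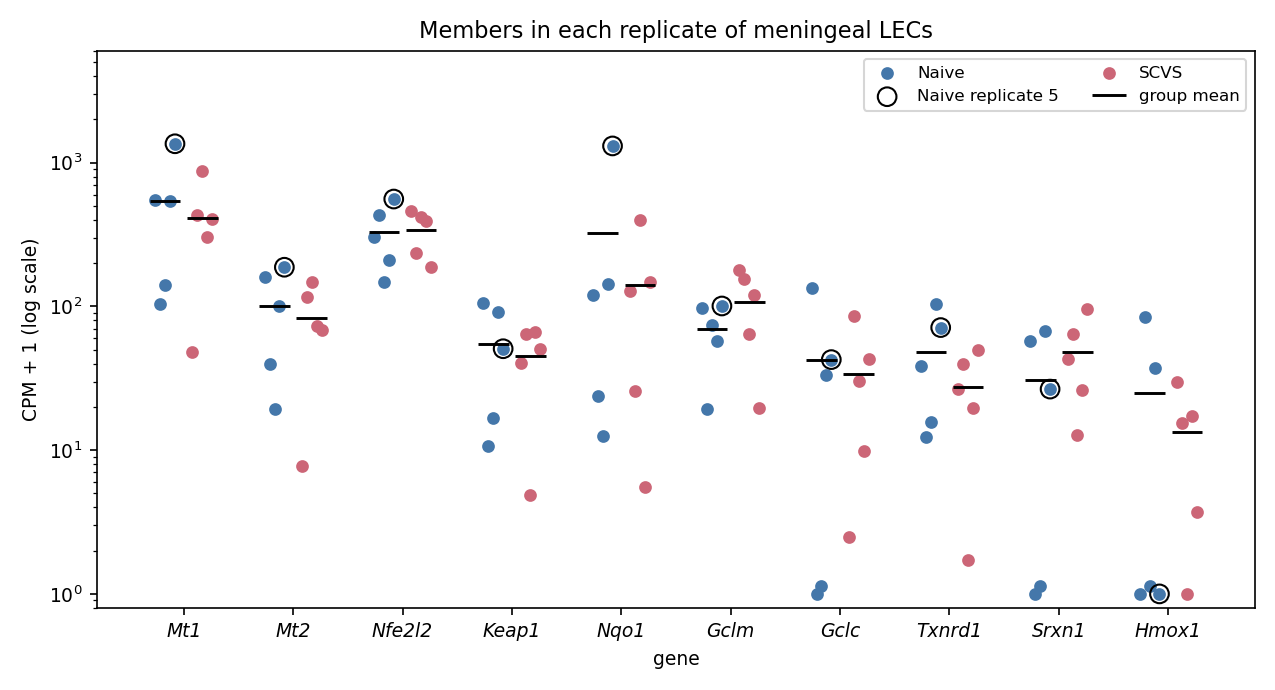
The level of each member in CPM + 1, on a log axis, is plotted for every naive (blue) and SCVS (red) replicate, with bars at the group means and a ring around Naive replicate 5. The groups overlap for every gene, and Naive replicate 5 lies at 1305 CPM for Nqo1, far above the other naive replicates.

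Mt1 encodes a metallothionein made in most tissues. In naive replicates 1 to 5 it stood at 549, 103, 141, 543 and 1351 CPM, and in SCVS replicates 1 to 5 at 47.2, 428, 869.9, 304 and 407 CPM. Naive replicates 2 and 3 and SCVS replicate 1 were low and the other 7 high, so each group held both kinds and the groups overlapped over most of their range. The naive and SCVS means were 537 ± 502 and 411 ± 298 CPM (SD, n = 5 each), and the log2 fold change was -0.42 (standard error, SE, 0.77, 95% interval -2.11 to 1.27, adjusted p 1.00 by edgeR). Without Naive replicate 5, which held 18011 of the Mt1 counts, the naive mean was 334 ± 245 CPM (SD, n = 4) and the log2 fold change turned to 0.28.

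Mt2, which encodes the companion metallothionein, was lower than Mt1 per kilobase of exon in every library and split the libraries in the same way. Its naive values were 158, 38.6, 18.5, 99.6 and 186 CPM, and its SCVS values 6.74, 115, 148, 72.5 and 67.7 CPM. The same 3 libraries, Naive replicates 2 and 3 and SCVS replicate 1, were again the lowest. The naive and SCVS means of 100.1 ± 72.8 and 81.9 ± 53.3 CPM (SD, n = 5 each) gave a log2 fold change of -0.35 (SE 0.77, 95% interval -2.03 to 1.34, adjusted p 1.00 by edgeR), which was 0.015 without Naive replicate 5. The ratio of Mt1 to Mt2 counts lay between 2.66 and 7.61, with a median of 5.45 in naive and 5.89 in SCVS replicates. Their transcripts, of 631 and 556 bases, share no identical run longer than 20 bases.

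Across the 10 replicates, Mt2 was the gene most like Mt1 of the 14814 others tested, with r = 0.94 on log2(CPM + 1). The next were Wfdc2, Cyp2g1, Nup205 and Pon1, each with r = 0.93, and those most like Mt2 were Pon3, Mt1, Dclk1, Dcxr and Lpgat1, with r from 0.95 down to 0.93. With a pseudocount of 0.1, or without Naive replicate 5, Mt2 ranked 2 for Mt1. These r are descriptions over 10 libraries (9 without Naive replicate 5) that share their amplification and differ in depth and composition.

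Cyp2g1 is known from the supporting cells of the olfactory epithelium, and a list of 4 genes known from those cells (Cyp2g1, Cyp2a5, Cyp1a2 and Ugt2a1) was drawn up after Cyp2g1 had been seen beside Mt1. All 4 genes were measured. Their summed level was 636, 1.96, 1.50, 2629 and 2926 CPM in naive replicates 1 to 5 and 0.780, 905, 2621, 818 and 258 CPM in SCVS replicates 1 to 5. The 3 libraries in which the sum was under 2 CPM were the 3 that were lowest in Mt1 and Mt2, and in these 3 at most 2 of the 4 genes were above the floor. In the other 7, 3 or 4 genes were above it, with Cyp1a2 at 0 in SCVS replicate 5. Across the 10 replicates the sum had r = 0.93 with Mt1, 0.91 with Mt2 and 0.87 with Gclc on log2(CPM + 1). Without Naive replicate 5 these were 0.93, 0.90 and 0.86. Across all 10, r was 0.61 with Srxn1, 0.42 with Nqo1, 0.33 with Keap1 and 0.17 with Txnrd1. It was 0.14 with Gclm, 0.09 with Nfe2l2 and -0.32 with Hmox1. Since the list was taken from a gene like Mt1, these values describe the libraries and are no test. The sort selected CD31+ and PDPN+ cells. The part of such supporting cells in the Mt1 and Mt2 levels was not tested, and in the 3 libraries with sums under 2 CPM Mt1 stood at 47.2 to 141 CPM and Mt2 at 6.74 to 38.6 CPM.

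**Figure D2:**
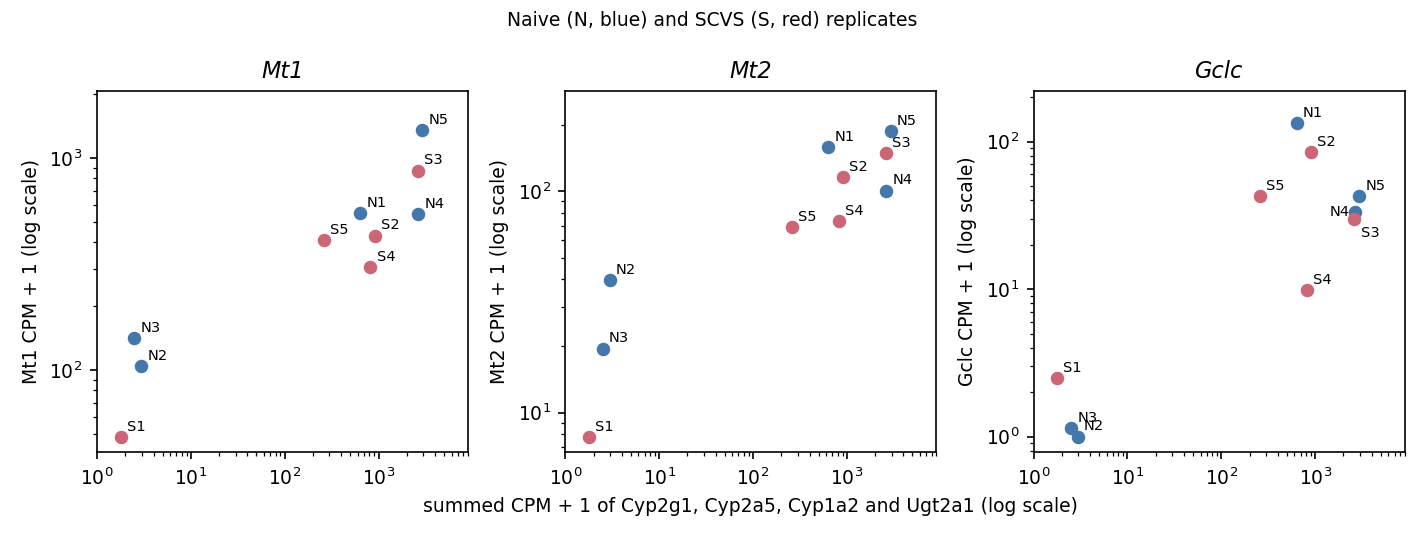
The panels plot Mt1, Mt2 and Gclc (CPM + 1) against the summed CPM + 1 of Cyp2g1, Cyp2a5, Cyp1a2 and Ugt2a1, on log axes, with 1 point for each naive (N, blue) and SCVS (S, red) replicate. Naive replicates 2 and 3 and SCVS replicate 1 lie at the lower left of all 3 panels, with sums under 2 CPM, and the other 7 libraries lie at the upper right, at 258 CPM or more.

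A list of 7 genes that glucocorticoids are known to act on (Fkbp5, Tsc22d3, Per1, Sgk1, Zbtb16, Dusp1 and Nr3c1) was set beside the metallothioneins. Its sum ranged from 489.9 to 2379 CPM in naive and from 1055 to 2315 CPM in SCVS replicates, so the groups overlapped. Over the 10 replicates it had r = -0.61 with Mt1 and -0.52 with Mt2. The lowest sum was that of Naive replicate 5, without which the naive range began at 1236 CPM and r was -0.43 with both genes.

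Nfe2l2 encodes the transcription factor NRF2. Its naive values were 304, 432, 146, 210.3 and 557 CPM and its SCVS values 457, 234, 417, 390.1 and 187 CPM. All 10 libraries held it at 146 CPM or more, and the SCVS values lay within the naive range. The means of 329.8 ± 166 CPM and 337 ± 119 CPM (SD, n = 5 each) gave a log2 fold change of -0.0014 with an SE of 0.42, and the 95% interval of -0.91 to 0.91 (edgeR) was the narrowest among the members. Its direction turned with the choice of scaling and with several single libraries, and without Naive replicate 5 the log2 fold change was 0.28.

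Keap1, whose product holds NRF2 in the cytoplasm and passes it to degradation, was lower than Nfe2l2 per kilobase of exon in every library. It stood at 105, 9.71, 15.7, 90.5 and 49.7 CPM in naive replicates and at 39.2, 63.7, 3.89, 65.2 and 49.6 CPM in SCVS replicates. Naive replicates 2 and 3 and SCVS replicate 3 were low, and the groups overlapped. The log2 fold change was -0.36 (SE 0.82, adjusted p 1.00 by edgeR), and it turned to 0.066 without Naive replicate 1, the library that lacked Prox1 and Pdpn. An antisense transcript overlaps Keap1, and since the use of strand in counting was not stated, reads of the pair cannot be told apart.

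Nqo1 encodes a quinone reductase that is widely used as a readout of NRF2. In naive replicates it stood at 119, 22.8, 11.5, 143 and 1305 CPM, and in SCVS replicates at 127, 24.9, 399, 4.53 and 148 CPM. A single library, Naive replicate 5, held 17399 counts and lay far above the others, and the rest of the naive values fell inside the SCVS range. The means were 320.3 ± 554 CPM and 141 ± 157 CPM (SD, n = 5 each), with a log2 fold change of -1.20 (SE 1.28, 95% interval -4.01 to 1.61, adjusted p 1.00 by edgeR). Without Naive replicate 5 the naive mean dropped to 74.1 ± 66.6 CPM (SD, n = 4), below the SCVS mean, and the log2 fold change was 0.94 (95% interval -1.50 to 3.38). The same library had the highest Omp, a marker of olfactory sensory neurons, at 3009 CPM against 0.329 to 1581 CPM in the other 9. The 6 olfactory sensory neuron genes (Omp, Cnga2, Cnga4, Gnal, Gng13 and Rtp1), a list also chosen after values had been seen, summed to 221 to 5093 CPM in naive and 3.20 to 2233 CPM in SCVS replicates, with r = 0.52 with Nqo1 over 10 libraries and 0.43 without Naive replicate 5. All 6 were above the floor in Naive replicate 5, and their part in its Nqo1 level was not tested. Larger in size were the r of Nqo1 with the glucocorticoid list (-0.77), the blood endothelial markers (-0.66) and the pan-endothelial markers Pecam1, Cdh5, Tie1 and Kdr (-0.61). Without Naive replicate 5 these were -0.61, -0.33 and -0.17.

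Gclc and Gclm encode the catalytic and the modifier subunit of glutamate-cysteine ligase, the enzyme that sets the rate of glutathione synthesis. Gclc stood at 133, 0, 0.143, 32.3 and 41.6 CPM in naive replicates and at 1.49, 84.2, 29.0, 8.84 and 41.8 CPM in SCVS replicates. It was at or under the floor in Naive replicates 2 and 3, with 0 and 2 counts, and had 21 counts in SCVS replicate 1, so the 3 libraries low in Mt1 were low in Gclc too. Its log2 fold change of -0.45 (SE 1.58, 95% interval -3.92 to 3.01, adjusted p 1.00 by edgeR) turned to 0.77 without Naive replicate 1. The epithelial genes Epcam, Krt8, Krt18 and Cdh1, chosen after values had been seen, had r = 0.88 with Gclc over 10 libraries and summed to 1.02 to 1985 CPM in naive and 49.2 to 1159 CPM in SCVS replicates. From 2 to 4 of these 4 genes were above the floor in each library, and their part in the Gclc level was not tested. Over the same 10 libraries their sum had r = 0.76 with Mt1 and 0.71 with Mt2.

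Gclm did not share that pattern. Its naive values were 96.2, 18.5, 73.1, 56.1 and 99.6 CPM and its SCVS values 179, 155, 63.1, 118 and 18.7 CPM. SCVS replicates 1, 2 and 4 were above every naive replicate, but SCVS replicates 3 and 5 lay inside the naive range. The means of 68.7 ± 33.2 CPM and 107 ± 65.7 CPM (SD, n = 5 each) gave a log2 fold change of 0.55 (SE 0.61, 95% interval -0.80 to 1.89, adjusted p 1.00 by edgeR). Gm17494, a transcript antisense to Gclm with 857 counts in all, overlaps it, and the same limit on strand holds. Its counts were 5, 102, 382, 162 and 159 in naive and 10, 11, 21, 3 and 2 in SCVS replicates. Over the 10 libraries Gclm had r = -0.81 with the fibroblast markers (Col1a1, Col1a2, Dcn, Lum and Pdgfra), whose sum was 50.9 to 1318 CPM in naive and 18.5 to 1500 CPM in SCVS replicates with 2 to 5 of the 5 above the floor, and their part in the Gclm level was not tested. That r was named as the largest in size of the marker lists, followed by 0.58 with the mural markers. With the pan-endothelial markers r was 0.08, but 0.78 without Naive replicate 5, where the fibroblast r was -0.82.

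Txnrd1 encodes cytosolic thioredoxin reductase, which keeps thioredoxin reduced. It stood at 37.2, 11.4, 14.6, 103 and 70.2 CPM in naive replicates and at 25.8, 38.9, 0.730, 18.6 and 48.8 CPM in SCVS replicates. SCVS replicate 3, with 9 counts, was the lowest library, and the SCVS replicates otherwise fell inside the naive range. The log2 fold change was -0.89 (SE 0.96, 95% interval -2.98 to 1.20, adjusted p 1.00 by edgeR).

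Srxn1 encodes sulfiredoxin, which repairs overoxidised peroxiredoxins. Its naive values were 56.2, 0, 0.143, 66.3 and 25.6 CPM and its SCVS values 41.9, 63.3, 11.8, 25.1 and 95.3 CPM. The SCVS replicates all held it, at 11.8 CPM or more, while Naive replicates 2 and 3 had 0 and 2 counts, and the remaining naive replicates lay within the SCVS range. Its log2 fold change of 0.62 had an SE of 1.43 (95% interval -2.51 to 3.74, adjusted p 1.00 by edgeR). Over 10 libraries Srxn1 had r = 0.83 with the epithelial genes listed for Gclc, and 0.87 without Naive replicate 5. Those genes had their lowest sums, 1.02 and 2.36 CPM, in Naive replicates 2 and 3. Their part in the Srxn1 level was not tested.

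Hmox1, which encodes the inducible heme oxygenase, was the member detected in the fewest libraries. Its naive counts were 0, 1073, 2, 494 and 0, or 0, 84.0, 0.143, 36.4 and 0 CPM, and its SCVS counts were 405, 177, 0, 216 and 27, or 28.7, 14.5, 0, 16.3 and 2.70 CPM. It was above the floor of 3 counts in 2 of 5 naive and 4 of 5 SCVS replicates, while the highest value was naive. The log2 fold change of -0.98 had the widest interval of the members, -5.60 to 3.65 (SE 2.11, adjusted p 1.00 by edgeR), and turned to 0.43 without Naive replicate 2.

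**Figure D3:**
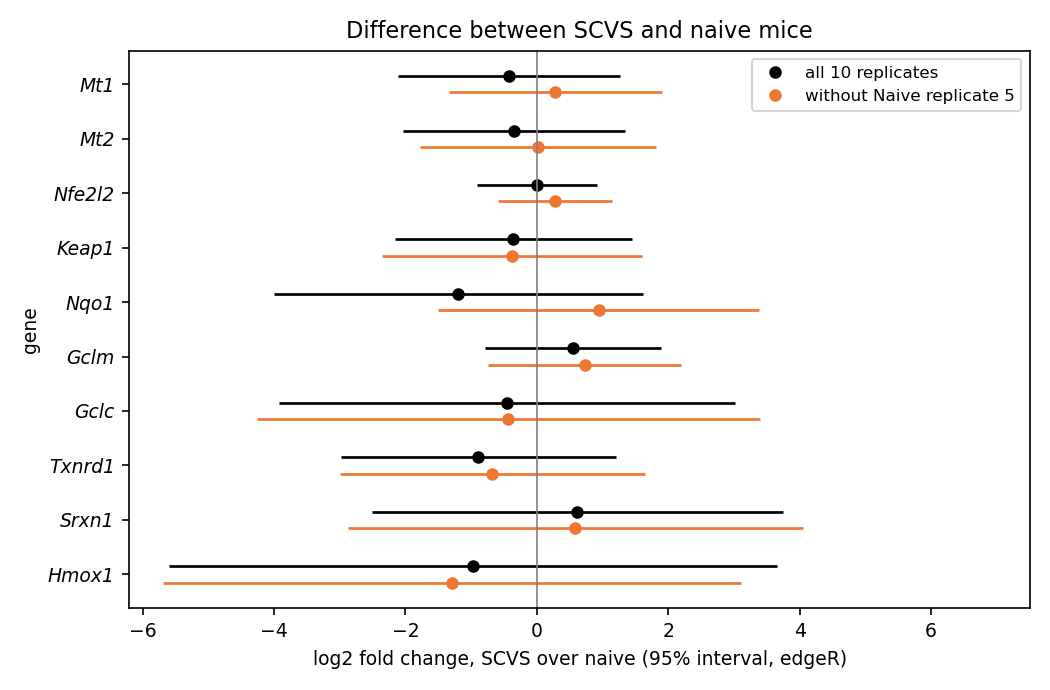
Points give the log2 fold change of each member (SCVS over naive) with its 95% interval from edgeR, in black over all 10 replicates and in orange without Naive replicate 5. Every interval includes 0. When that library is left out, the points of Mt1, Mt2, Nqo1 and Nfe2l2 lie on the other side of 0. They go from -0.42, -0.35, -1.20 and -0.0014 to 0.28, 0.015, 0.94 and 0.28.

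An alternative chosen after seeing the data left out Naive replicates 1 and 5. It removed naive libraries only, and SCVS replicate 5, also set apart by its markers, was kept. The log2 fold change was then 0.67 for Mt1, 0.66 for Mt2, 1.31 for Nqo1, 1.59 for Gclc and 1.06 for Gclm. Of the 10 members, 8 were above 0. None had an adjusted p under 0.1 in edgeR in that setting either. Gclm and Srxn1 were above 0, and Txnrd1 below 0, in all 18 alternatives tried, with adjusted p between 0.715 and 1.0 for these 3 genes. Their sizes varied widely, from 0.29 to 1.06 for Gclm, from 0.17 (without SCVS replicate 5) to 3.90 (limma) for Srxn1 and from -1.26 to -0.42 for Txnrd1.

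Per kilobase of exon, Mt1 had the highest mean, at 630 ± 524 CPM per kb (SD, n = 10), and was above Mt2 (164 ± 110) in 10 of 10 libraries. Mt2 was above Nqo1 (148 ± 254) in 8 of 10, and Nqo1 above Nfe2l2 (87.8 ± 35.9) in 4 of 10, so that these 3 did not differ beyond their spread. The Nqo1 mean rested on Naive replicate 5, and over the other 9 libraries it was 71.6 ± 79.5 CPM per kb (SD, n = 9), below Nfe2l2 at 81.3 ± 31.2 and above Gclm at 16.8 ± 10.9 CPM per kb in 6 of 9. Over all 10 libraries, Nfe2l2 was above Gclm (17.1 ± 10.3 CPM per kb) in 10 of 10 libraries. From Gclm down through Srxn1, Keap1, Gclc and Txnrd1 to Hmox1, at 8.46 ± 12.3 CPM per kb, each gene was above the next in 4 to 7 of 10 libraries, and none of these neighbours differed beyond its spread.

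The spread between replicates of a group differed between members. The within-group SD of log2(CPM + 1) was 0.68 for Nfe2l2, and 19.6% of the 7577 tested genes with a mean of at least 20 CPM had less. It was 1.15 for Gclm and 1.55 for both Mt1 and Mt2, on either side of the median of 1.29 over those genes. It was 2.52 for Nqo1 and 2.69 for Gclc, with 90.4% and 93.9% of the genes having less. Without Naive replicate 5 the SD was 2.16 for Nqo1, 2.77 for Gclc and 0.61 for Nfe2l2, against a median of 1.13. Between members other than the metallothionein pair, r over the 10 libraries was 0.87 for Txnrd1 with Keap1, 0.81 for Mt1 with Gclc, 0.79 for Gclc with Srxn1 and 0.71 for Srxn1 with Keap1, and Mt1 with Hmox1 had r = -0.56.

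Of the wider pathway, 103 genes in 9 lists ordered by role were examined and 100 were tested. In edgeR 0 of the 100 had an adjusted p under 0.1, beside 0.0% of all tested genes, and DESeq2 and limma also called 0. At an unadjusted p under 0.05 there were 2, beside 3.1% of all tested genes, and 51 log2 fold changes were above 0 and 49 below, with a median of 0.02 (59, 41 and 0.10 without Naive replicate 5).

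Of the other metallothioneins, Mt4, known from stratified epithelium, had 0 counts in all 10 libraries, which allows up to 0.300 CPM in a library. Mt3, known from neurons and astrocytes, stood at 13.9, 1.33, 2.72, 53.8 and 178 CPM in naive and 30.1, 9.53, 15.5, 85.9 and 57.1 CPM in SCVS replicates. The groups overlapped, with the highest value again in Naive replicate 5, and the log2 fold change of -0.35 (SE 1.17, adjusted p 1.00 by edgeR) turned to 1.17 without it. Mt3 had r = 0.87 with the summed astrocyte and neural markers over 10 libraries, and 0.82 without Naive replicate 5, whose range is given above, and their part in its level was not tested. Of 15 genes of metal response and zinc transport, 7 were above 0 and 8 below (10 and 5 without Naive replicate 5), with the zinc transporters Slc39a10 at 197 ± 103 and 154 ± 60.2 CPM and Slc30a5 at 101 ± 33.3 and 98.7 ± 58.2 CPM in the naive and SCVS groups (SD, n = 5 each).

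Among 13 genes that control NRF2, the log2 fold changes had a median of -0.03. Sqstm1, whose product p62 binds KEAP1, was at 554 ± 130 and 471 ± 146 CPM in the naive and SCVS groups, and Rbx1, a subunit of the ubiquitin ligase that KEAP1 serves, at 337 ± 81.9 and 340.3 ± 76.6 CPM (SD, n = 5 each). Of 13 other targets of NRF2, 7 were above 0 and 6 below, with the epoxide hydrolase gene Ephx1 at 390.1 ± 123 and 318 ± 138 CPM and Esd, which encodes an esterase that hydrolyses S-formylglutathione, at 130.0 ± 47.5 and 184 ± 75.0 CPM (SD, n = 5 each). Of 7 genes that supply NADPH, the electron donor of these reductases, 5 were below 0, including Taldo1 at 381 ± 173 and 306 ± 138 CPM and Tkt at 137 ± 46.4 and 108 ± 63.8 CPM, enzymes of the pentose phosphate pathway.

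Of 22 tested genes of glutathione synthesis and use, 11 were above and 11 below 0. Gsto1, which encodes an omega-class glutathione transferase, was the only pathway gene whose groups did not overlap. Its counts were 0, 0, 1, 156 and 82 in naive replicates and 509, 554, 377, 257 and 408 in SCVS replicates, or 3.54 ± 5.18 and 34.5 ± 10.1 CPM (SD, n = 5 each). Every SCVS replicate was above every naive one, as for 0.445% of all tested genes, but the log2 fold change of 3.25 (SE 1.74) had an adjusted p of 1.00 in edgeR, 0.866 in DESeq2 and between 0.323 and 1.0 over the 18 alternatives. Gstm1, at 1327 ± 644 and 1130 ± 429 CPM, and Slc3a2, which encodes the heavy chain of the cystine transporter, at 653 ± 254 and 625 ± 294 CPM (SD, n = 5 each), had the highest mean CPM of the list, and reads of Gstm1 may be shared with its close paralogs.

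Of 13 tested genes of the thioredoxin and peroxiredoxin system, Txnrd3, a thioredoxin reductase known from testis, had a log2 fold change of 5.46 (SE 2.48). It rested on 3 libraries, with 119, 169, 1, 304 and 0 counts in SCVS replicates against 1, 11, 0, 0 and 0 in naive ones, and its adjusted p was 1.00 in edgeR. Txnip, whose product binds and inhibits thioredoxin, stood at 317, 687, 777, 374 and 162 CPM in naive and 929.6, 1118, 553, 609 and 791 CPM in SCVS replicates. The SCVS values were higher on average (log2 fold change 0.73, SE 0.40, adjusted p 1.00 by edgeR), but naive replicates 2 and 3 lay among them. Prdx1, a peroxiredoxin, was at 1084 ± 178 and 1182 ± 365 CPM (SD, n = 5 each).

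Of the 5 genes that remove superoxide and peroxide, Sod1 stood at 274 ± 51.5 and 303 ± 60.0 CPM and the catalase gene Cat at 164 ± 63.6 and 111 ± 20.1 CPM in the naive and SCVS groups (SD, n = 5 each). Cat had a log2 fold change of -0.59 (SE 0.36, adjusted p 1.00 by edgeR). Of 11 genes of heme and iron handling, 8 were above 0, with a median log2 fold change of 0.33. These were 7 and 0.22 without Naive replicate 5, and 6 and 0.12 in limma. Hmox2, the constitutive heme oxygenase, chosen for mention after its values had been seen, had means of 56.0 ± 17.1 and 116 ± 47.1 CPM in the naive and SCVS groups (SD, n = 5 each), with a log2 fold change of 1.00 (SE 0.41, adjusted p 1.00 by edgeR). The ferritin genes Fth1, at 3668 ± 848 and 3395 ± 648 CPM, and Ftl1, at 1487 ± 301 and 1649 ± 127 CPM (SD, n = 5 each), had the highest mean CPM of the 103 genes, although reads of both, and of Prdx1, may be shared with processed pseudogenes.

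**Figure D4:**
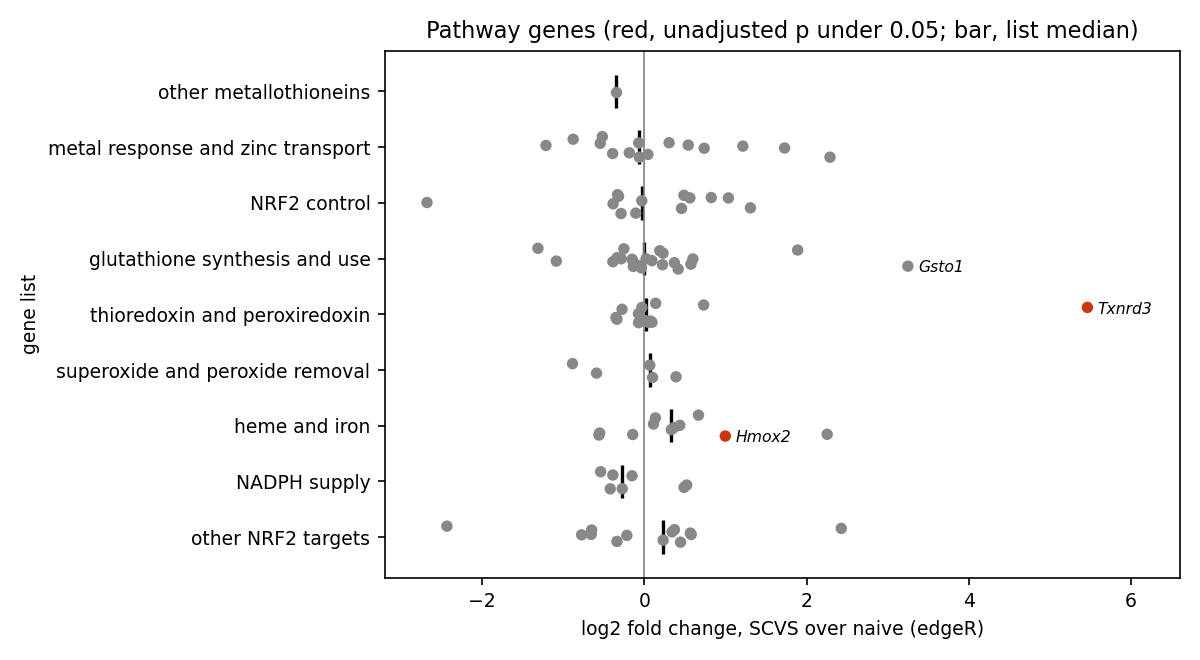
Each point is 1 of the 100 tested pathway genes, placed by its log2 fold change (SCVS over naive, edgeR) in the row of its role, with a bar at the median of each list and red for an unadjusted p under 0.05. The medians lie between -0.35 and 0.33, and of the 3 labelled genes Txnrd3 and Gsto1 lie furthest to the right, at 5.46 and 3.25, while Hmox2 at 1.00 lies among other genes.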

How the data were processed

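RNA of the 5 naive and 5 SCVS replicates had been amplified with a whole-transcriptome kit. The authors deposited raw counts per gene without normalization. Per the labels' processing notes, cutadapt 1.9.1, HISAT2 2.0.1 and HTSeq 0.6.1 were used; the notes name GRCm38 and the methods mm9, so coordinates of the count annotation are uncertain and those printed are RefSeq's (GRCm38.p6). Exon lengths came from GENCODE M1, which held 58.8% of the identifiers. Use of strand was not stated.

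Replicates were grouped by their labels. The filter kept genes above 5 counts in 3 or more replicates, which were tested with edgeR 4.0.16 in R 4.3.3 (quasi-likelihood, TMM, Benjamini-Hochberg, threshold 0.1), after tests on simulated data. Intervals are 95%, r is Pearson's on log2(CPM + 1), and floors cover counting error only, since amplified reads are not independent molecules. Alternatives were DESeq2 1.42.0, limma 3.58.1 with voom and quality weights, other scalings and filters, a replicate block and leaving out each replicate. The members and lists were chosen with earlier results of these data known. Named were all members and, of each list, the 2 most abundant genes, any called gene, any whose groups did not overlap and any with a log2 fold change over 3 and unadjusted p under 0.05, besides the 5 genes most like Mt1 or Mt2. Replicates were separate pools of mice.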

Additional observations from a re-analysis of the deposited data

Results flagged for a closer look

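Of the 20 groups of 5 values examined, 2 for each member, 1 held a value far from the others by Dixon's criterion at the 95% level, and chance gives about 1 in 20. Nqo1 stood at 1305 CPM in Naive replicate 5, the nearest naive value was 143 CPM, and the gap between them made up 0.899 of the group's range. The same library had the lowest blood endothelial and the highest neural marker sums, and the part of its composition in the Nqo1 value was not tested.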

How the results depend on the processing

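In edgeR, 0 genes had an adjusted p under 0.1 under every scaling, filter, block and left-out replicate, with 460 genes at an unadjusted p under 0.05 over all replicates and from 142 under the stricter filter to 4941 with no filter. DESeq2 called 114 genes, 74 higher and 40 lower in SCVS mice, and limma 3. No member was called in any alternative, with adjusted p from 0.591 to 1.0, so the directions below are of values that did not pass. Leaving out 1 replicate moved the log2 fold change from -0.93 to 0.28 for Mt1, -0.70 to 0.015 for Mt2, -2.11 to 0.94 for Nqo1 (each above 0 only without Naive replicate 5), -1.55 to 0.43 for Hmox1 (Naive replicate 2), -1.04 to 0.77 for Gclc and -0.63 to 0.066 for Keap1 (Naive replicate 1). The range was 0.29 to 0.82 for Gclm, 0.17 to 1.11 for Srxn1, -1.26 to -0.42 for Txnrd1, -0.19 to 0.28 for Nfe2l2, -0.86 to 1.17 for Mt3, -0.41 to 0.20 for Slc30a5, -0.14 to 0.10 for Rbx1, -0.32 to 0.083 for Slc3a2 and -0.13 to 0.18 for Prdx1. Without both Naive replicates 1 and 5, an alternative chosen after seeing the data, values on the other side of 0 were Mt1 0.67, Mt2 0.66, Nqo1 1.31, Gclc 1.59, Nfe2l2 0.36, Keap1 0.19, Mt3 1.09, Slc30a5 0.14, Rbx1 0.21 and Prdx1 -0.0070. In limma they were Hmox1 0.86, Gclc 2.82, Nfe2l2 0.11, Keap1 0.14, Mt3 1.36, Rbx1 0.072 and Prdx1 -0.065, and by column totals Nfe2l2 0.031 and Rbx1 0.018. The labels do not say whether the replicate numbers pair the samples, and the values do not settle it. Deviations of same-numbered replicates had r of 0.036, 0.045, -0.017, 0.063 and 0.149, yet 4 of 5 naive replicates were closest to their own number. With the replicate block 0 genes were called and 266 had an unadjusted p under 0.05, and Hmox1 was 0.39, Gclc 0.79, Nfe2l2 0.078 and Mt3 1.12. The cause of these shifts was not tested. Hmox1, Gclc and Srxn1 were at or under 3 counts in some libraries, so their fold changes rest on the other libraries.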
